A study of Mus musculus with 6 samples.

Results

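Trimethylation of lysine 27 of histone H3 (H3K27me3) is a repressive chromatin mark written by a Polycomb complex, PRC2, in which either EZH2 or the related EZH1 is the methyltransferase. PRC2 is recruited to CpG-rich sites near silent developmental genes, and its EED subunit binds the finished mark, which lets the complex spread it to neighbouring nucleosomes. In male germ cells the mark covers many promoters of somatic and developmental genes. This section describes 599 short regions that carried H3K27me3 calls in every library of the series but were called over a longer stretch when Ezh2 had been deleted.

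The regions were chosen as follows. The lists of peaks called by MACS2 in the 4 libraries of chromatin immunoprecipitation and sequencing (ChIP-seq) were merged wherever peaks touched or overlapped, which gave 54748 regions. Of the 54594 on autosomes, 19873 held a peak of every library, and 19220 of these were under 10 kb wide. They are called shared regions here. For each, the base pairs under MACS2 peaks were counted per library. The region was taken as widening where the smaller mutant value was at least 1.5 times the larger control value, which 599 of 19220 (3.12%) met. The regions were thus chosen by their MACS2 values in these libraries, which are given as a description.

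The cells were spermatogenic cells from testes of 6-week-old mice of mixed background. Control mice carried the Mvh-driven Cre recombinase with 1 floxed and 1 wild-type copy of Ezh2 (MvhCre;Ezh2fl/+, 2 libraries), so the controls also had Cre and had a floxed allele of their own. Mutant mice carried the same Cre with floxed alleles only (MvhCre;Ezh2fl/fl, 2 libraries). Mvh is a germ cell gene, and the cells were a mixture of stages of which 90% were spermatogenic by microscopy, per the labels. Each genotype also had an input sample, which was not analysed here. The labels do not state whether replicate libraries were made from different mice, so their spread may be technical. The labels change no allele of Ezh1 in either group.

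A call says that the mark passed a caller's threshold, not how much mark there was. More cells with the mark and more mark per cell cannot be told apart. Over the autosomes, control peaks spanned 67.2 and 69.7 Mb with MACS2 and mutant peaks 81.7 and 64.2 Mb (libraries 1 and 2 of each), so mutant 1 had the most called sequence and mutant 2 the least. Bins called by hiddenDomains, a hidden Markov model caller for broad marks, spanned 53.3 and 54.1 Mb (controls) and 50.7 and 44.5 Mb (mutants). With MACS2, widening thus went with the total of mutant 1 and against that of mutant 2. With hiddenDomains it went against the totals of both mutants. Whether these totals have a part in the widening was not tested. Read depth is unknown. An mm9 gene annotation was not used here, so regions are named by mm9 coordinates counted from 1, and gene markers of cell types could not be looked up.

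The widening regions were narrower than the median shared region in controls and wider than it in mutants. The median region had 846 and 908 bp under MACS2 peaks in controls 1 and 2, and 2994 and 2454 bp in mutants 1 and 2. Over all 19220 shared regions the medians were 2229 and 2312 bp in the controls against 2219 and 1999 bp in the mutants. Summed over the 599 regions, peaks covered 670 and 699 kb in the controls against 2063 and 1702 kb in the mutants. That was 0.998% and 1.0% of all autosomal peak sequence in the controls against 2.52% and 2.65% in the mutants. The fold between the smaller mutant and the larger control value had a median of 1.95 and reached 8.67. Of the 599 regions, 272 had a fold of at least 2, 76 of at least 3 and 17 of at least 5. Merged regions were between 707 and 9989 bp wide, with a median of 3462 bp.

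**Figure D1:**
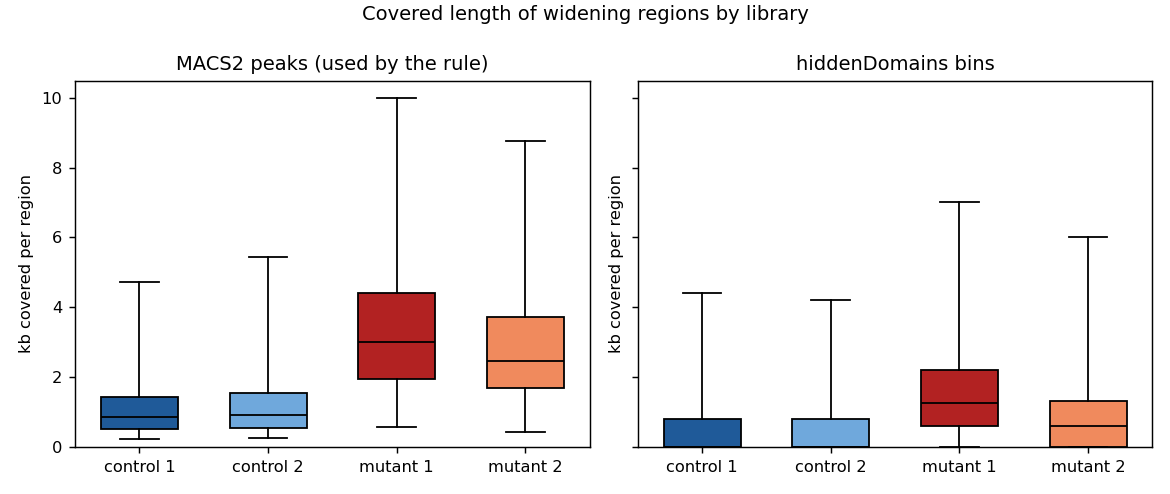
Kilobases covered per widening region (y axis) in each of the 4 libraries (x axis), by MACS2 peaks (left, used to choose the regions) and by hiddenDomains bins (right). Boxes span the quartiles with the median as a line, and whiskers reach the lowest and highest of the 599 regions. With bins the control medians are at 0 and mutant 1 (median 1264 bp) lies above mutant 2 (median 600 bp).

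How often a shared region met the rule varied with its covered length in the controls. Where the larger control value was under 500 bp, 71 of 166 regions (42.8%) widened. The share was 17.7% of the 1122 regions from 500 bp to 1 kb, 3.94% of the 5539 from 1 to 2 kb and 1.06% of the 10309 from 2 to 5 kb. Of the 2084 regions with 5 kb or more in a control, 2 widened. A region near the limit of 10 kb has little room to widen under the rule, and a short peak needs few added base pairs to pass it. In all, 270 of the 599 (45.1%) had less than 1 kb under peaks in either control.

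The opposite change was more frequent. By the mirror rule, in which the smaller control value is at least 1.5 times the larger mutant value, 1231 of the 19220 shared regions (6.40%) shrank, against the 599 that widened. When the same number of widest peaks (31863) was taken from every list, 582 regions widened and 733 shrank. Of the shared regions, 13.9% had more MACS2 base pairs in both mutants than in both controls and 38.9% had fewer. Shrinking regions were wider in controls, with medians of 1808 and 1855 bp, and fell to 767 and 747 bp in the mutants. Widening was thus the less common direction in both counts.

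Most of the added sequence belonged to mutant peaks that also overlapped a control peak, which the merging of overlapping peaks into regions brings about in large part. Base pairs under a peak of both mutants and of neither control, called gained here, came to 683 kb, with a median of 980 bp per region. Base pairs under a peak in all 4 libraries came to 390 kb. Of the gained sequence, 88.9% lay in mutant peaks that, in both mutants, also overlapped a control peak. In 498 regions (83.1%) all of it did, and in 30 (5.01%) none of it did. Within these regions 3.52 kb were under peaks of both controls and of neither mutant, spread over 28 regions. The rule and the merging of overlapping peaks leave little room for such loss, and it was not counted in other shared regions.

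Growth was more often to 1 side than to both. A side was counted as moved where the outermost peak edge of both mutants lay at least 200 bp beyond that of both controls. By this count 386 regions (64.4%) grew on 1 side, 104 (17.4%) on both sides and 109 (18.2%) on neither. The 594 sides that moved did so by a median of 830 bp, as the smaller of the mutants' steps, and 4 sides moved inward by the same margin. Where neither side moved by that margin, the extra length lay between control peaks, or the libraries of a genotype differed in their edges, or the step was shorter. The number of peaks barely changed. In 384 regions (64.1%) each library had exactly 1 peak, and the mean number per region was 1.17 and 1.14 in the controls against 1.10 and 1.20 in the mutants. Separate control peaks were replaced by 1 peak in both mutants in 15 regions. Both mutants had more peaks than both controls in 3 regions. Median peak widths in these regions were 749 and 810 bp in the controls against 2701 and 2041 bp in the mutants.

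**Figure D2:**
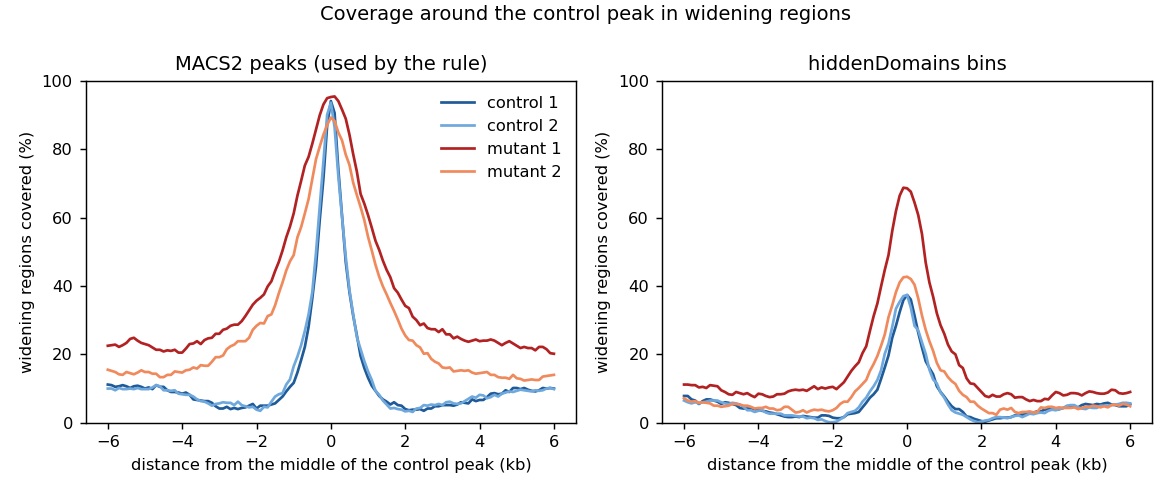
Share of the 599 widening regions covered (y axis, percent) at each distance from the middle of the control peak (x axis, kb) for MACS2 peaks (left, used by the rule and for the centring) and hiddenDomains bins (right), 1 line per library. At 1 kb to the left, MACS2 peaks covered 11.7% and 16.5% of regions in the controls against 61.3% and 49.1% in the mutants, and bins 7.35% and 9.18% against 26.9% and 15.2%.

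The control peaks of these regions overlapped each other less than those of other shared regions. Within widening regions, the peaks of the 2 controls shared 0.448 of the base pairs that either covered, against 0.792 in the other shared regions. The mutants shared 0.630 of theirs, against 0.753 elsewhere. In 73 regions (12.2%) the peaks of the 2 controls had no base pair in common, and in 101 (16.9%) no base pair was common to all 4 libraries. Such regions were joined through peaks that overlapped in part of the libraries at a time. The rule picks regions with short control peaks, and the overlap was not compared at matched peak length.

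The bins of hiddenDomains were the check on the widening. They come from the same libraries and the same contrast as the rule, so their counts are a description and were not tested. Both mutants had more bin-covered base pairs than both controls in 224 of the 599 regions, or 37.4%, against 7.74% of all shared regions. Both mutants lay below both controls in 17 widening regions (2.84%), against 41.3% of all shared regions. In the remaining 358 (59.8%) the libraries of the genotypes overlapped, against 51.0% of all shared regions. Taking the means, 482 regions (80.5%) had more bin sequence in the mutants, against 24.6% of all shared regions. By the stricter rule, in which the smaller mutant value is at least 1.5 times the larger control value and above 0, 169 regions (28.2%) widened in bins, against 3.19% of all shared regions. These 169 include 81 with bins in both mutants and none in either control, 13.5% of the 599 against 1.59% of all shared regions. Only 34 of the 169 held a bin in every library. That is 5.68% of the 599, while 0.702% of all shared regions met both conditions.

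Mutant 1 carried most of the gain in bins. The median widening region had no bin in either control, 1264 bp in mutant 1 and 600 bp in mutant 2. Summed over the regions, bins covered 298 and 314 kb in the controls, 924 kb in mutant 1 and 508 kb in mutant 2. No bin was called in 311 and 301 of the regions in the controls, in 76 in mutant 1 and in 220 in mutant 2. As shares these were 51.9% and 50.3%, 12.7% and 36.7%, against 8.65% and 8.93%, 10.5% and 16.0% of all shared regions. Another 111 regions (18.5%) had bins in 1 mutant and no control, against 2.54% of all shared regions. No library had a bin in 33 (5.51%), against 1.49%. The median log2 ratio of mutant to control bin coverage, with 200 bp added to each value, was 1.0 over the widening regions and -0.16 over all shared regions. With 50 bp added the former was 1.51 and with 1000 bp it was 0.47. Set against the control mean, the median was 1.36 for mutant 1 and 0.13 for mutant 2. With mutant 1 left out, 872 regions met the rule, their median was 0 and mutant 2 lay above both controls in 348 (39.9%). With mutant 2 left out, 1915 met it and mutant 1 lay above both controls in 1222 (63.8%). With 1 mutant this condition is easier to meet, and its share over all shared regions was not counted.

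**Figure D3:**
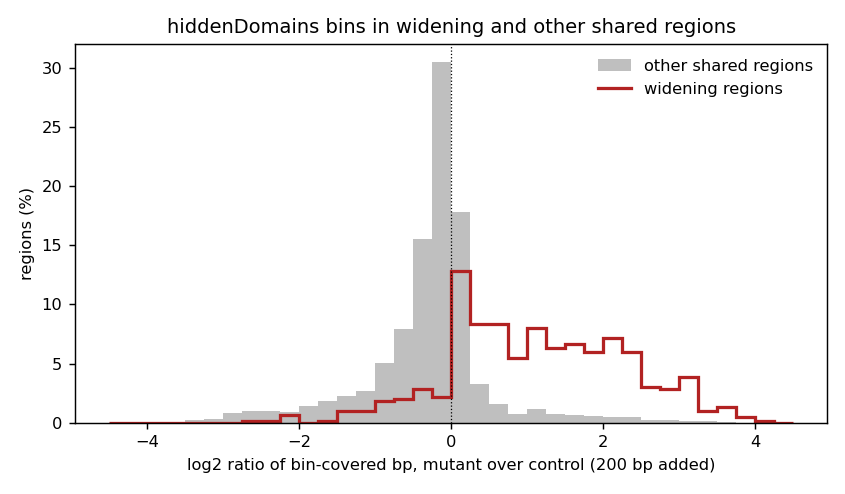
Distribution of the log2 ratio of bin-covered base pairs, mean mutant over mean control with 200 bp added (x axis), as the percent of regions in each class of 0.25 log2 units (y axis), for the 599 widening regions (red line) and the 18621 other shared regions (grey). The median is 1.0 for widening and -0.17 for other shared regions.

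When bins alone defined the regions, the rule was met far less often. Of 15601 autosomal regions under 10 kb merged from bins and called in all 4 libraries, 153 widened (0.981%) and 1299 shrank (8.33%). Of the 153, 29 (19.0%) overlapped one of the 599 regions chosen by MACS2, which is 4.84% of the 599, and 132 (86.3%) lay in a shared MACS2 region. Within the 599, bins of all 4 libraries were present in 177 (29.5%), against 76.6% of all shared regions. In 225 (37.6%) neither control had a bin. Of all shared regions, 8.65% had no bin in control 1, whether or not the other control had one. The share of all shared regions with no bin in either control can thus be no higher than that.

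The gained base pairs themselves were largely outside bins in the controls, and only in part inside bins in the mutants. They were picked for peaks of both mutants and of neither control, which favours bins in the mutants over bins in the controls. The bins come from the same libraries, and no like sequence was counted in other shared regions. Bins covered 1.30% and 2.05% of the gained sequence in the controls, 36.5% in mutant 1 and 17.2% in mutant 2. In the sequence under peaks of all 4 libraries the values were 56.1% and 58.9% in the controls against 82.4% and 63.0% in the mutants. In 220 regions (36.7%) both mutants had a bin in the gained sequence. In 204 (34.1%) only mutant 1 did, in 40 (6.68%) only mutant 2 did and in 135 (22.5%) neither did. A control had a bin in the gained sequence of 162 regions. Bins within widening regions also had lower display scores than all autosomal bins of a library. Those with the highest score of 1000 made up 81.3% and 81.2% of the bins in these regions in the controls, with 80.5% and 78.0% in the mutants. Of all autosomal bins of a library they made up 91.0% to 93.1%. The scores were not compared with those in other shared regions or in equally short ones.

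Support from bins was counted by width in the controls and by fold. Both mutants exceeded both controls in 15 of the 71 widening regions under 500 bp in the controls (21.1%), in 65 of 199 (32.7%) from 500 bp to 1 kb, in 80 of 218 (36.7%) from 1 to 2 kb and in 63 of 109 (57.8%) from 2 to 5 kb. Over all shared regions the same shares were 11.4%, 12.4%, 7.24% and 6.98%. By fold, the share was 37.4% over all 599, 35.3% of the 272 with a fold of at least 2, 36.8% of the 76 with at least 3, 39.4% of the 33 with at least 4 and 47.1% of the 17 with at least 5. By the stricter rule of 1.5 times in bins, the counts were 169 of 599, 85 of 272, 27 of 76, 13 of 33 and 8 of 17. Among these steps of fold both shares were highest at the last, which held few regions, and by width the share rose from the narrowest class to that of 2 to 5 kb.

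The regions of highest fold show what these numbers look like on the chromosome. On chromosome 16 from 30932983 to 30937436, MACS2 peaks covered 274 and 299 bp in the controls against 3974 and 2593 bp in the mutants, a fold of 8.67. Bins there covered 200 and 200 bp in the controls against 1200 and 1400 bp in the mutants, so bins also put both mutants above both controls. The control peaks lay near the right end, and growth of at least 1650 bp was to the left. On chromosome 9 from 43561094 to 43565170, peaks covered 248 and 416 bp in the controls against 3813 and 3250 bp in the mutants, and bins 0 and 0 bp against 1200 and 1000 bp. This region grew on both sides, by at least 1754 and 588 bp.

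The next regions by fold were backed by bins less evenly. On chromosome 2 from 31665048 to 31672224, peaks covered 323 and 570 bp in the controls against 7177 and 4151 bp in the mutants, while bins covered 200 and 800 bp against 5624 and 800 bp. Mutant 2 was thus no higher than control 2 in bins, and the control peaks lay at opposite ends of the region. On chromosome 2 from 166417222 to 166421596, peaks covered 450 and 422 bp in the controls against 4007 and 2977 bp in the mutants, and bins 200 and 0 bp against 979 and 800 bp. Another widening region lay 8.10 kb away from it. On chromosome 5 from 35803444 to 35810532, peaks covered 752 and 280 bp in the controls against 7089 and 4810 bp in the mutants, with only 200 bp of bins, in mutant 1. On chromosome 15 from 84232841 to 84240529, peaks covered 439 and 652 bp in the controls against 7575 and 4169 bp in the mutants, and the only bins were 2200 bp in mutant 1. Both callers therefore separated the genotypes in 3 of the 6 regions with the highest fold.

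**Figure D4:**
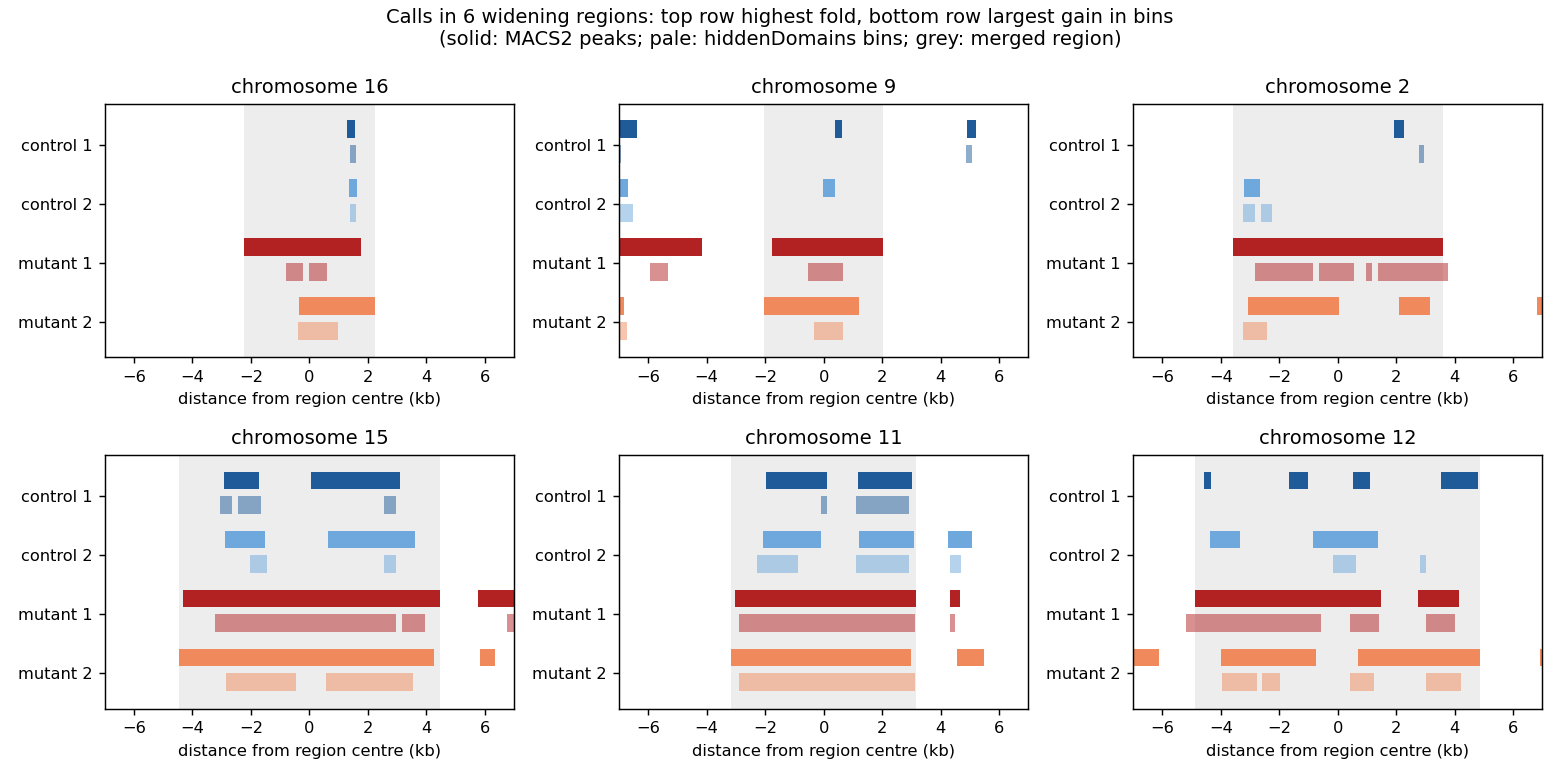
MACS2 peaks (solid) and hiddenDomains bins (pale) of each library (rows) by distance from the region's centre in kb (x axis), with the merged region in grey. The top row shows the 3 regions of highest fold, on chromosomes 16, 9 and 2. The bottom row shows the 3 with the largest gain in bins, on chromosomes 15, 11 and 12. On chromosomes 15 and 11, the MACS2 peaks of both mutants run across the gap between the control peaks of the region. On chromosome 12 the peaks of each mutant leave a gap of their own.

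The largest gain in bins was on chromosome 15, and regions on chromosomes 11 and 12 tied for the next. On chromosome 15 from 78500599 to 78509495, both controls had 2 peaks, of 4208 and 4327 bp in sum, and each mutant had 1 peak, of 8783 and 8703 bp. Bins covered 1600 and 1000 bp in the controls against 7000 and 5400 bp in the mutants, a gap of 3800 bp between the larger control and the smaller mutant. On chromosome 11 from 115668922 to 115675260, 2 peaks of 3935 and 3867 bp in sum in the controls became 1 peak of 6196 and 6168 bp in the mutants, and bins went from 2000 and 3200 bp to 6000 and 6000 bp. The mutants were nearly equal in MACS2 length in both of these regions, and in bins in the one on chromosome 11.

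On chromosome 12 from 110275709 to 110285445, which was also among the 6 widest, the controls had 4 and 2 peaks and each mutant had 2. Peaks covered 2733 and 3240 bp in the controls against 7767 and 7441 bp in the mutants. Bins there covered 0 and 1000 bp against 6292 and 3800 bp, and a region of 10 kb or more lay 2.04 kb away. On chromosome 5 from 129774359 to 129780473, peaks covered 574 and 1705 bp in the controls against 5094 and 5323 bp in the mutants, and bins 400 and 0 bp against 3000 and 3600 bp. On chromosome 16 from 34465532 to 34475046, peaks covered 1113 and 1102 bp against 8384 and 5681 bp, and bins 0 and 0 bp against 2600 and 3200 bp. On chromosome 1 from 121090915 to 121094786, peaks covered 581 and 243 bp against 3872 and 3076 bp, and bins 400 and 0 bp against 3686 and 2800 bp. In all 6 of these regions the lower mutant exceeded the higher control with both callers, as the rule that picked them required.

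Among the 6 widest regions, the peaks of mutant 1 filled the whole merged region in 2. On chromosome 6 from 121328060 to 121338048, peaks covered 2224 and 2458 bp in the controls against 9989 and 6054 bp in the mutants, and bins 1600 and 400 bp against 5389 and 800 bp. On chromosome 5 from 35830536 to 35840507, peaks covered 1782 and 1421 bp against 9972 and 3954 bp, and bins 200 and 600 bp against 4200 and 1600 bp. In the first of these mutant 2 lay below control 1 in bins, and in the second both mutants lay above both controls. On chromosome 4 from 153781348 to 153791188, peaks covered 3414 and 4162 bp in the controls against 9667 and 6953 bp in the mutants, and bins 3000 and 3200 bp against 5200 and 5600 bp. On chromosome 14 from 26195803 to 26205669, the controls already had 4717 and 5424 bp and the mutants 8481 and 8564 bp, and bins went from 3800 bp in each control to 4798 bp in each mutant. On chromosome 2 from 160733341 to 160743191, peaks covered 4469 and 4186 bp against 7766 and 8766 bp, and bins 3000 and 4200 bp against 7000 and 4600 bp. Over all 599 regions, the peaks of mutant 1 filled the merged region in 145 (24.2%) and those of mutant 2 in 32 (5.34%), against 6.79% and 2.31% of all shared regions. Mutant 1 was the wider mutant in 413 (68.9%), against 59.4% of all shared regions.

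A few regions went the other way in bins. On chromosome 5 from 147519787 to 147521645, peaks covered 799 and 847 bp in the controls against 1332 and 1846 bp in the mutants, yet bins covered 800 and 1000 bp in the controls and were absent from both mutants. On chromosome 2 from 101745734 to 101746742, bins covered 742 bp in each control and none in the mutants, against peaks of 464 and 576 bp and of 919 and 879 bp. On chromosome 3 from 67850179 to 67851839, bins covered 600 and 822 bp in the controls and none in the mutants, against peaks of 474 and 764 bp and of 1293 and 1526 bp. Here the callers disagreed on the direction. Another 4 regions tied with the one on chromosome 3 in bins lost, and it was taken as the first by position. One of them, on chromosome 3 from 115924663 to 115926654 and chosen after its values were seen, had the lowest log2 ratio in bins of all widening regions (-2.62), with 600 and 1454 bp in the controls and none in the mutants, against peaks of 708 and 963 bp and of 1906 and 1979 bp. Bins were called in both controls and in no mutant in 8 of the widening regions (1.34%), against 3.98% of all shared regions.

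Regions near the threshold show how fine the division was. The member with the lowest fold, on chromosome 9 from 107270980 to 107273294, had 1216 and 804 bp in the controls against 1827 and 1824 bp in the mutants. Bins there covered 894 and 0 bp in the controls against 1000 and 1400 bp in the mutants. The next, on chromosome 12 from 75383263 to 75386976, had 1862 and 2132 bp against 3605 and 3199 bp. Its bins covered 776 and 776 bp against 2200 and 2376 bp. The third, on chromosome 9 from 58685831 to 58688770, had 540 and 980 bp against 2100 and 1471 bp with no bin in any library. Just outside lay a region on chromosome 2 from 177852105 to 177858600, with 3088 and 4144 bp in the controls against 6212 and 6496 bp in the mutants. Bins there covered 3000 and 3000 bp against 4600 and 5096 bp. A region on chromosome 5 from 53598713 to 53608141 had 5619 and 5262 bp against 9429 and 8423 bp. One on chromosome 6 from 116998652 to 117001786 had 1064 and 722 bp against 1594 and 2919 bp. All 3 regions just outside had more bins in both mutants than in both controls, as had the members named before the third. Of all shared regions that did not meet the rule, 6.78% had.

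Widening regions lay in sequence that was densely marked. The nearest other shared region was a median of 8.60 kb away, against 16.3 kb over all shared regions, and the nearest region of 10 kb or more 409 kb away, against 956 kb. In the 50 kb on either side, MACS2 peaks covered a median of 8.15 and 8.32 kb in the controls, against 4.62 and 4.76 kb around all shared regions. Mutant-only regions, which had peaks in both mutants and in neither control, were near as well. One lay within 50 kb of 339 widening regions (56.6%) and of 24.0% of all shared regions. For control-only regions the shares were 11.7% and 18.4%.

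The flanks gained MACS2 calls too, and mainly in mutant 1. Medians in the flanks were 15.9 kb in mutant 1 and 10.5 kb in mutant 2, and both mutants lay above both controls at 361 widening regions (60.3%), against 23.2% of all shared regions. Flanks of neighbouring regions overlap, so these are not independent counts. Another widening region lay within 50 kb of 137 widening regions (22.9%), against 7.25% of all shared regions. Such flanks can take in sequence that the rule chose for its MACS2 gain. How much of the flank gain came from other widening regions was not tested. In bins the flanks of mutant 2 did not stand above the controls. Their medians were 5.20 and 5.0 kb in the controls, 7.20 kb in mutant 1 and 4.85 kb in mutant 2. Both mutants lay above both controls in bins at 159 widening regions (26.5%), against 9.15% of all shared regions, and below both at 95 (15.9%), against 41.7%. Whether the coverage of the flanks has a part in the widening was not tested.

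The regions were unevenly spread over the chromosomes. Chromosome 4 had 84 of its 1441 shared regions widening (5.83%), chromosome 2 had 73 of 1519 (4.81%) and chromosome 11 had 56 of 1304 (4.29%). At the other end, chromosome 13 had 14 of 907 (1.54%), chromosome 10 had 19 of 1122 (1.69%) and chromosome 3 had 17 of 957 (1.78%). With covered lengths as called, chromosome 4 was the only autosome on which more regions widened than shrank, with 57 shrinking, while chromosome 2 had 74 shrinking. Chromosome 10 had the highest share of shrinking regions, at 9.54%. On chromosome 4, bins put both mutants above both controls in 37 of the 84 widening regions. Over all 599 widening regions they did so in 224 (37.4%). The same share of all shared regions on chromosome 4 was not counted. By position along the span of calls on a chromosome, 47.7% of the widening regions lay in the last 25%, away from the centromere, against 37.2% of all shared regions, and 18.2% lay within 10 Mb of the last call, against 13.6%.

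**Figure D5:**
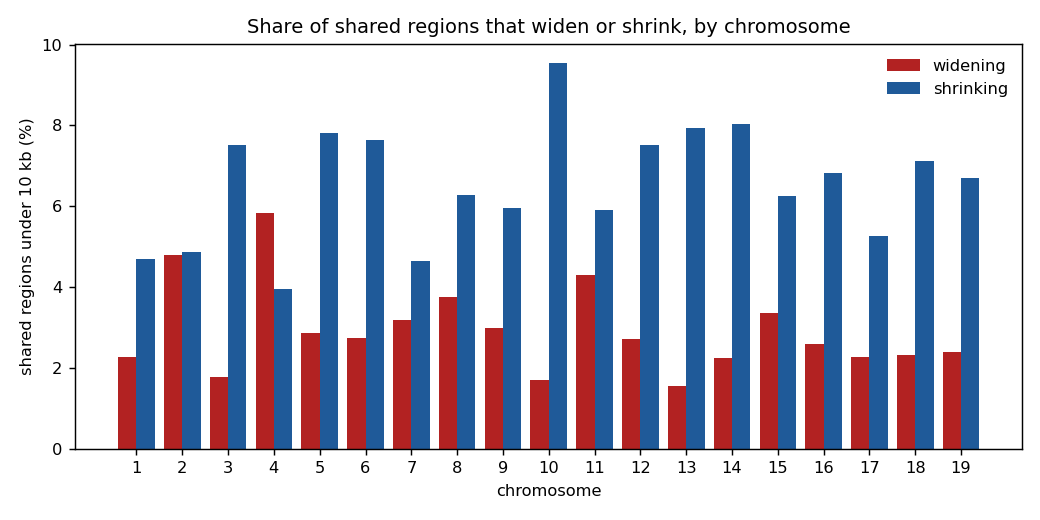
Share of the shared regions under 10 kb (y axis, percent) that widened (red) or shrank (blue) on each autosome (x axis). Widening is highest on chromosome 4 (5.83%), the only autosome where it exceeds shrinking, and lowest on chromosome 13 (1.54%).

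Some widening regions were neighbours. Joined where they lay within 50 kb of each other, the 599 regions formed 523 groups, of which 462 were lone regions. There were 48 pairs, 11 groups of 3 and 2 groups of 4. A group of 4 lay on chromosome 2 from 172653468 to 172716215. There, the peaks of the 4 regions covered 3.90 and 2.38 kb in the controls against 11.0 and 9.07 kb in the mutants, and bins 1.34 and 0.800 kb against 3.14 and 1.74 kb. The other group of 4 lay on chromosome 4 from 139693946 to 139820636, where peaks covered 4.04 and 3.60 kb against 11.1 and 9.40 kb, and bins 0.6 and 0.581 kb against 4.58 and 2.20 kb. Another 3 regions lay on chromosome 4 from 140034271 to 140061608, where peaks covered 4.03 and 4.81 kb in the controls against 10.2 and 10.8 kb in the mutants. Further, on chromosome 5 from 35751452 to 35840507, which holds regions named above for their fold and width, 3 regions had 3.99 and 3.29 kb of peaks in the controls against 21.7 and 14.3 kb in the mutants, with bins of 0.2 and 1.4 kb against 7.40 and 3.40 kb. With MACS2 the rule fixes that the sums of both mutants exceed those of both controls in any group. In bins they did so in these 4 groups, although no region of the group of 4 on chromosome 2 did so on its own (0 of 4). Not every group did. On chromosome 6 from 121247071 to 121338048, 3 regions had peaks of 8.77 and 8.44 kb in the controls against 22.9 and 19.3 kb in the mutants, but bins of 6.6 and 3.0 kb against 12.3 and 6.2 kb, so that mutant 2 lay below control 1.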

How the data were processed

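H3K27me3 ChIP-seq libraries of 2 control and 2 Ezh2 mutant samples were used, grouped by their titles, and the 2 input samples were not analysed here. The deposited peak lists come from MACS version 2, per the file headers, and hold start and end positions only. The deposited bins of 200 bp come from hiddenDomains, per the file names, with a display score of 4 values that no label or header explains. Per the submitters' processing notes, the build is mm9 and the tools include Bowtie, SAMtools and bedtools. Thresholds, control tracks, tool versions and read depth: not given in the sources used here. MACS2 file names pair each library with a label of its own genotype. A deeper or cleaner library can give wider calls, which was not tested here, and nothing was normalised for depth.

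Touching intervals of a library were joined and base pairs counted with Python 3.11.15 and numpy 2.4.6. Bins were clipped at region edges. Ratios of bin coverage used log2 with 200 bp added. The rule was checked on 400 planted regions, of which 400 were classed as planted. No test was run, because members and bins share libraries and contrast. Regions named are the 6 of highest fold, the 6 widest, the 6 with the largest gain in bins among those widening at least 1.5 times in bins, the 3 with the largest loss in bins, and 3 on either side of the threshold. Ties were taken in order of chromosome and start. Members and lists were chosen with earlier results of these data known. Alternatives changed the fold, merging, width limit, scaling, peaks used, chromosomes, caller, score, pseudocount and libraries. Sequences of the regions were not analysed here.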

Additional observations from a re-analysis of the deposited data

How the results depend on the processing

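No test was run, so alternatives move values and end no call. No paired analysis was possible because no result comes from a test. With a laxer fold, 1022 regions widened, with bins of both mutants above both controls in 372 and at least 1.5 times in 256, and the ratio of widening to shrinking regions was 0.396, against 0.487. With a fold of 2 these values were 272, 96, 85 and 0.685. Under a width limit of 5 kb, bins backed 143 and the ratio was 0.382. The ratio was 0.375 with covered lengths scaled to equal totals and 0.794 with the same number of widest peaks. Bins in place of peaks chose 153 widening regions, a ratio of 0.118. Bins of the highest score covered 0.681% and 0.836% of gained sequence in controls 1 and 2. With a side step of 1 bp, 36.1% of regions grew on both sides, 56.1% on 1 side and 7.85% on neither, and with 500 bp 7.18%, 55.9% and 36.9%. With each library left out in turn, which loosens the rule because fewer libraries must meet it, between 872 and 1915 regions widened: 1524 without control 1, 1764 without control 2, 872 without mutant 1 and 1915 without mutant 2. Bins backed 348 to 1222 of them, and 256 to 952 at 1.5 times. The median log2 ratio in bins ran from 0 without mutant 1 to 1.0 without control 1, and the ratio from 0.264 without mutant 1 to 0.909 without control 2. No alternative turned a direction, and fewer regions widened than shrank under each. Merging up to 500 bp and adding the X kept every value within its limit. Read depth, and so the part it has in call width, is unknown.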

Other observations

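On the X chromosome, left out by the rule, 48 regions under 10 kb had peaks in all 4 libraries, and 2 widened. From 6353931 to 6357509 on the X, peaks covered 1996 and 1154 bp in the controls against 3575 and 3402 bp in the mutants, while bins covered 2309 and 1000 bp against 2400 and 2109 bp. From 108008794 to 108012773, peaks covered 815 and 1135 bp against 3980 and 2269 bp, and bins 200 and 0 bp against 2800 and 0 bp. In neither did bins put both mutants above both controls.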
